A study of Mus musculus with 9 samples.

Results

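The muscle ubiquitin ligases described here are 7 genes, Fbxo32, Trim63, Trim55, Trim54, Fbxo30, Fbxo40 and Fbxo21. They were chosen by symbol as the muscle RING ligases of the TRIM family and the F-box proteins tied to atrophy. All 7 were found among the 55487 genes of the deposited tables, and all 7 were among the 16140 genes that passed the filter on low values (0.3 TPM in at least 3 of 9 samples). TPM is a transcript level corrected for gene length and scaled to one total per sample, so levels of different genes can be set side by side.

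RNA was sequenced from gastrocnemius, a calf muscle of mixed fibre type, of male C57BL/6 mice given as 8 weeks old. Dis is the leg held in a thermoplastic bandage for 7 days, Con is the free leg on the other side in the mice that were immobilized, and NC is muscle of mice left untreated, with 3 samples per group. The labels name no transgene and no drug. The methods house the mice for some weeks before the experiment, so the age at sampling is higher than the age given. The series text calls Con an immobilized leg and the methods name the tibialis anterior in one place, whereas each sample label gives gastrocnemius and puts Con on the free leg. The study's text speaks of as many immobilized mice as a group has samples, which would make samples of a group separate animals, while the labels neither say so nor link the Con and Dis samples of one mouse. The p-values measure the spread between these samples. The main fit treats Con and Dis as separate groups, so its p-values do not use the pairing of legs within a mouse.

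A ubiquitin ligase (E3) picks the protein that is to be tagged with ubiquitin, and tagged proteins are then cut up by the proteasome. The TRIM ligases of striated muscle, called MuRF proteins, carry a RING domain that binds the E2 enzyme directly and sit on the sarcomere. F-box proteins instead work as exchangeable substrate receptors of the SCF complex, which is built on Cul1, Skp1 and Rbx1. Fbxo32 (MAFbx or atrogin-1) and Trim63 (MuRF1) are the classic transcripts of muscle wasting, and FoxO factors are known to switch on several of these genes when growth signals fall.

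The genes lie apart in the genome. By the coordinates of the files, which equal those of GENCODE M21 (GRCm38) for 7 of 7, Fbxo32 is at chr15:58175879-58214932 on the minus strand, Trim63 at chr4:134315120-134329629 on the plus strand and Trim55 at chr3:19644474-19692421 on the plus strand. Trim54 (chr5:31116712-31137630) and Fbxo21 (chr5:117976730-118010201) share a chromosome, Fbxo30 is at chr10:11281330-11298052, these on the plus strand, and Fbxo40 at chr16:36963460-36990467 on the minus strand. Each is a protein-coding gene. No stretch of 75 bases in a transcript of Fbxo32, Trim63, Trim55, Trim54, Fbxo30 or Fbxo40 occurs in another annotated gene, so the MuRF paralogs can be told apart at that length. Fbxo21 shares 26 such stretches with the pseudogene Gm5403, which is listed at 0 in all 9 samples. Exons of Fbxo32 overlap the antisense gene Gm15943 over 186 bases, and exons of Trim54 overlap the antisense gene Gm15469 over 382 bases. Gm15943 reads at most 0.775 TPM and Gm15469 at most 1.58 TPM in any sample. The methods name a strand-specific library kit, but whether the counting used strand is not stated, so reads over these bases cannot be assigned.

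The 250 bases upstream of the start site are shown for the 2 members that passed the test in at least 1 comparison with Dis and whose RefSeq window (GRCm38.p6) does not run into an annotated transcript. Capitals mark matches, on either strand, to the letters GTAAACA (FoxO factors) and CAGCTG (E-box of myogenic factors), and no match overlaps another. Both sequences read 5′ to 3′ on the strand of the gene.
Trim63, chr4:134314870-134315119, plus strand: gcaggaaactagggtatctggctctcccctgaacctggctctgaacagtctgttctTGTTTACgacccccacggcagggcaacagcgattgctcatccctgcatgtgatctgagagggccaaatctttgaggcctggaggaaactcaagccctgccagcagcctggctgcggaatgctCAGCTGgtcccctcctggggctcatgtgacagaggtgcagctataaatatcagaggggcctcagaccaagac
Fbxo40, chr16:36990468-36990717, minus strand: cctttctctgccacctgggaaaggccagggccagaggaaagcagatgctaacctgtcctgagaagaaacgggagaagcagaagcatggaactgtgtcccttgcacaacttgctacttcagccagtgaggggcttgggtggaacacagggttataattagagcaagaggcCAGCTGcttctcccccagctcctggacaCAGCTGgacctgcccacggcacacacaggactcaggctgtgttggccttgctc
The Trim63 window holds 1 FoxO match, read here as its reverse complement and starting 194 bases before the start site, and 1 E-box match starting 72 bases before it. The Fbxo40 window holds 0 FoxO matches and 2 E-box matches, 81 and 53 bases before the start. Of 32817 RefSeq windows of this length 3.16% hold the FoxO letters and 13.0% the E-box letters. Exact copies of the glucocorticoid receptor palindrome (in 0.00914% of windows) and the MEF2 motif (in 0.104%) were found in neither window. Near matches were not counted in this search. The Trim63 window does hold a near match to the receptor palindrome, ending directly before the FoxO letters. It differs from the palindrome only in its leading letter, and binding there was not tested. A second Fbxo40 window, at a start inside the gene, holds 1 E-box match 89 bases before it. RefSeq windows were matched for 5 of the 7 genes, and a window for Fbxo32 or Trim55 was not used here. A match is a run of letters and not a measured binding site.

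Of the whole data, only what touches these genes is given. Read totals are unknown because TPM does not keep them, so no counting error can be given. Muscle fibre markers (12 genes, including Acta1, Ckm and Myh4) sum to 138800 to 163300 TPM in the 9 samples, none of them at 0, and 2 of the 12 fell in Dis relative to Con, Myh2 and the slow troponin Tnni1. This number was 1 without Con sample 2, Con sample 3 or Dis sample 1, and 3 without Dis sample 2. Relative to NC 1 fell, Myh2, with 2 called without Con sample 1 and 0 without Dis sample 1 or NC sample 1. Dis sample 2 stands apart from the other Dis samples on the first principal component, at 68.1 against 12.7 and 19.6, with the 6 controls between -21.5 and -7.95. Its mitochondrially encoded share is 13.8% of TPM against 19.3 to 23.4% in the other 8 samples. Macrophage markers (8 genes, none at 0 throughout, 0 of 8 called, or 3 fallen relative to Con without Dis sample 2) sum to 285 TPM in Dis sample 2, to 31.2 and 42.4 in the other Dis samples, to 52.7 to 77.7 in Con and to 31.6 to 39.4 in NC. Neutrophil markers (6 genes, 3 tested, 0 called, or 2 risen without Dis sample 1) sum to 29.2 TPM in Dis sample 2 and to 0.389 to 7.90 elsewhere. Schwann cell markers, of which 2 of 5 rose in Dis relative to Con (0 without Con sample 2, Con sample 3, Dis sample 3 or NC sample 1, 1 without Dis sample 1, NC sample 2 or NC sample 3, and 3 without Dis sample 2), sum to 105 to 291 TPM in Dis and 42.1 to 112.6 in Con, and to 70.9 to 128 in NC, relative to which 0 passed. Satellite cell markers (5 genes, 4 tested) sum to 24.5 to 42.1 TPM in Dis, 15.4 to 17.9 in Con and 14.7 to 18.7 in NC, with 1 of 4 called, Cdh15. Adipocyte and blood markers had 0 calls in limma in both comparisons with Dis. Fibroblast markers (8 genes) had 0 calls, but without Dis sample 2 3 of them fell relative to Con and 1 relative to NC, and without Dis sample 1 1 rose relative to NC. Of 5 endothelial markers 0 were called relative to Con (2 up and 1 down without Dis sample 1) and 1 fell relative to NC, Kdr (-0.89, limma adjusted p = 0.0177), a call lost without NC sample 1 or 2. The part of these cells in the ligase values was not tested. In bulk muscle, fewer cells of a type and less RNA per cell cannot be told apart.

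In muscle of the untreated mice the ligases spanned a wide range of levels. Trim54 (MuRF3), which binds microtubules and the sarcomere, stood highest at 465 ± 23.1 TPM (SD, n = 3), followed by Trim63 at 229 ± 6.64, Fbxo40 at 154 ± 2.86, Fbxo32 at 79.3 ± 14.7 and Trim55 (MuRF2) at 44.3 ± 2.91 TPM. Fbxo21 at 5.57 ± 0.336 TPM and Fbxo30 at 5.27 ± 0.475 TPM did not differ beyond their spread. Averaged over all samples, Trim54 and Trim63 lay above 99.0 and 98.9% of the tested genes, Fbxo32 and Fbxo40 above 96.3 and 96.2%, Trim55 above 87.4%, and Fbxo21 and Fbxo30 near the middle (53.4 and 50.5%). The free leg had the same order. There Trim54 stood at 468 ± 36.8 TPM, Trim63 at 257 ± 108, Fbxo40 at 155 ± 9.57, Fbxo32 at 78.0 ± 31.2 and Trim55 at 44.2 ± 3.22 TPM, with Fbxo21 at 5.98 ± 1.04 and Fbxo30 at 5.18 ± 0.548 TPM within each other's spread.

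**Figure D1:**
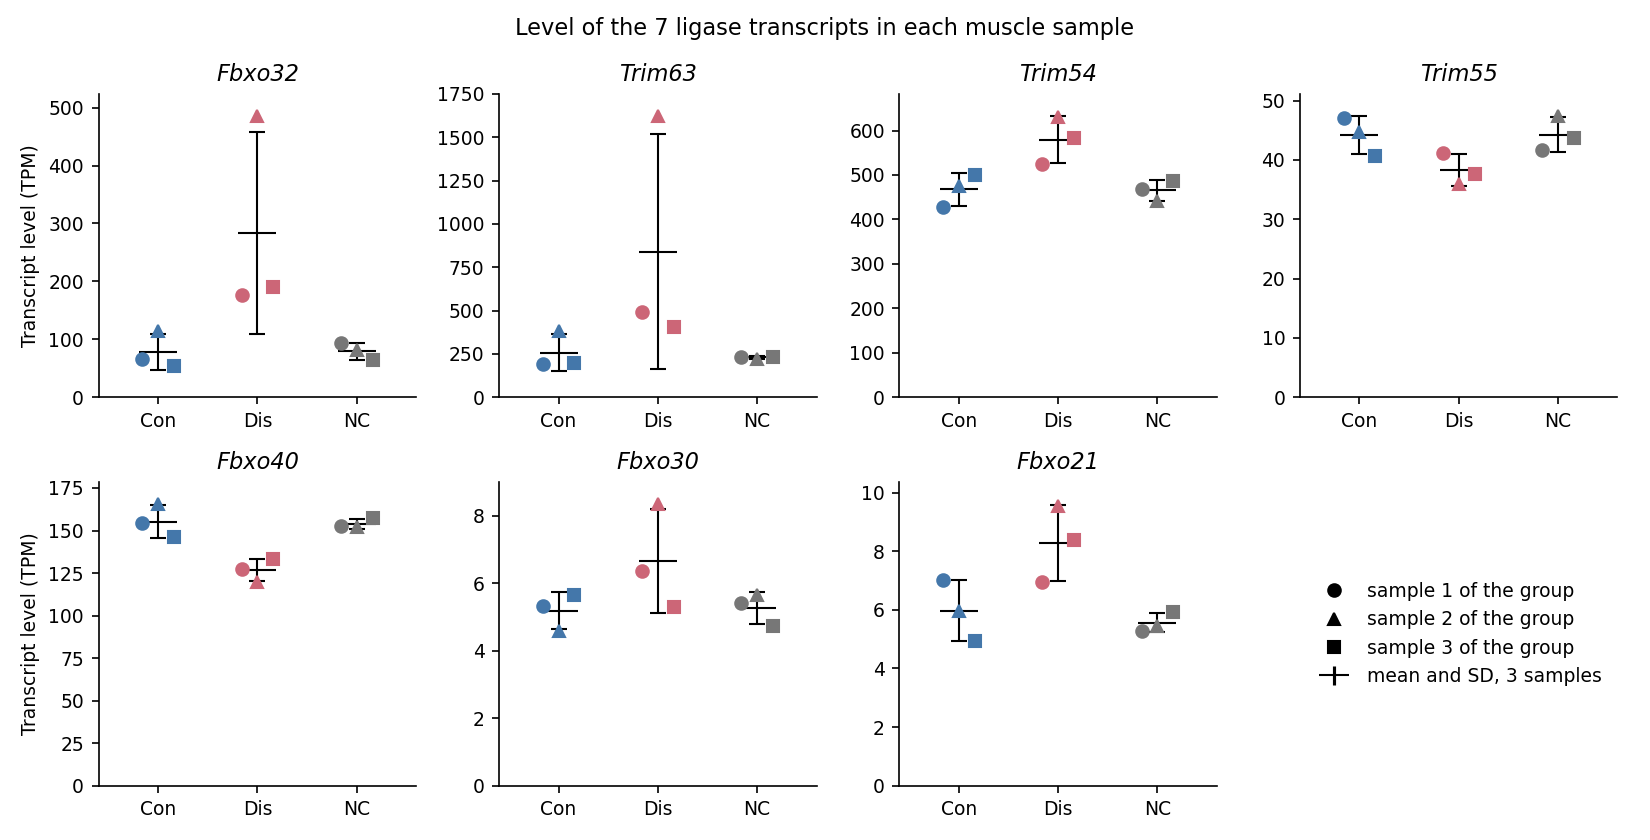
Transcript level in TPM (linear axes from 0) of each ligase in the 3 samples of Con, Dis and NC; symbols number the samples within a group, bars give the mean and SD. Fbxo32 and Trim63 are higher in each Dis sample than in each control sample, with Dis sample 2 highest at 485.7 and 1623 TPM, whereas Fbxo40 is lower in each Dis sample.

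Immobilization went with a higher Fbxo32 transcript and a lower Fbxo40 transcript in the same leg. The comparison of Dis with Con asks what differs between the 2 legs of the immobilized mice. On log2(TPM + 0.5), fitted with limma over all 16140 genes and called at an adjusted p below 0.05, 1 of the 7 ligases, Fbxo32, rose and 1, Fbxo40, fell, where 17.2% of all tested genes were called (14.1% higher and 3.08% lower). In 4 members the 2 groups do not overlap, 3 with Dis higher and 1 with Dis lower, where this holds for 36.7% of all genes (30.2% higher and 6.43% lower), and 5 members have an unadjusted p below 0.05, where 33.7% of genes do. Relative to NC, 3 ligases (Fbxo32, Trim63 and Fbxo21) rose and 1 (Fbxo40) fell, where 16.6% of genes were called (13.6% higher and 2.99% lower), and 6 did not overlap, 4 with Dis higher and 2 with Dis lower, where 38.0% of genes do not (31.3% higher and 6.71% lower). Of the 7, 5 have an unadjusted p below 0.05 against NC, where 34.1% of genes do. The number called relative to Con was 0 without Con sample 1 or 3, 3 without Dis sample 1 or 3 and 1 without any other sample. Relative to NC it was 0 without any 1 NC sample, 1 without Con sample 2 and 2 without Con sample 1, Con sample 3 or Dis sample 2. In these fits with 0 calls, 4 or 5 of the 7 had an unadjusted p below 0.05, where 4229 to 4721 of the 16140 genes did. Both comparisons use the same 3 Dis samples and are not independent. Over the 16140 genes the median change is 0.20 on the log2 scale for Dis with Con and 0.21 for Dis with NC, and median-ratio scaling brings both to 0.01. That scaling turns the 2273 higher and 497 lower calls of Dis with Con into 431 and 753, and the 2194 and 482 of Dis with NC into 566 and 891. Changes of the ligases are therefore also given relative to it.

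Fbxo32, the substrate receptor whose described targets include MyoD and the initiation factor eIF3f, had the largest change of the 7. The 3 Dis samples read 176.6, 485.7 and 189.9 TPM, the Con samples 65.9, 113.5 and 54.7, and the NC samples 93.2, 80.6 and 63.9. The lowest Dis sample lies above the highest control, which is Con sample 2, and Dis sample 2 is more than the other Dis samples together. The mean was 284 ± 175 TPM in Dis against 78.0 ± 31.2 in Con, a ratio of means of 3.64 (log2 fold change 1.76, SE 0.39, limma adjusted p = 0.0184). Relative to NC the log2 fold change was 1.69 (SE 0.39, limma adjusted p = 0.0202). Relative to Con, 99.85% of the tested genes had a lower log2 fold change, and after median-ratio scaling it was 1.54 (limma adjusted p = 0.0363). Without Dis sample 2 the change was 1.30 (limma adjusted p = 0.0177) relative to Con and 1.22 (limma adjusted p = 0.0223) relative to NC. The call against Con was lost without Con sample 1 (1.68, limma adjusted p = 0.0692) or Con sample 3 (1.55, limma adjusted p = 0.0613), and the call against NC with any single NC sample left out (1.54 to 1.81, limma adjusted p 0.0553 to 0.0731).

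Trim63, the ligase of the thick filament whose described targets include myosin heavy and light chains, was high in the same samples. The Dis samples read 492, 1623 and 406 TPM, those of Con 190.5, 382 and 198.6, and those of NC 233, 221.5 and 232.5. The groups do not overlap, but the lowest Dis sample lies close to Con sample 2, the sample that was also highest in Con for Fbxo32. The mean was 841 ± 679 TPM in Dis and 257 ± 108 in Con, a ratio of means of 3.27 (log2 fold change 1.49, SE 0.46), which did not pass (limma adjusted p = 0.055). Relative to NC it passed by a narrow margin, at 1.58 (SE 0.46, limma adjusted p = 0.0465). Without Dis sample 2 the log2 fold changes were 0.87 relative to Con (limma adjusted p = 0.0528) and 0.96 relative to NC (limma adjusted p = 0.0421). After median-ratio scaling they were 1.26 and 1.34, and neither passed (limma adjusted p = 0.112 and 0.0911). Relative to Con Trim63 passed without Dis sample 3 (1.87, limma adjusted p = 0.037) and with a filter of 1 TPM. Relative to NC it was called in 7 of 20 alternative settings, among them each that left out 1 Dis sample. The SD was 6.64 TPM in NC, 108 in Con and 679 in Dis.

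The other MuRF transcripts differed by much less. Trim54 was at 524, 630.4 and 583 TPM in the Dis samples, 428, 475 and 499.9 in those of Con, and 468.5, 440.5 and 486 in those of NC. Each Dis sample is above each control, yet the log2 fold changes of 0.31 relative to Con (SE 0.10, limma adjusted p = 0.0651) and 0.31 relative to NC (SE 0.10, limma adjusted p = 0.0627) did not pass. They exceed the median of all genes by 0.11 and 0.10, and after median-ratio scaling they were 0.08 and 0.07. Without Dis sample 1 both passed (0.38 and 0.38, limma adjusted p = 0.0409 and 0.0379), and without Dis sample 2 neither did (0.24 and 0.25, limma adjusted p = 0.125 and 0.127). Trim55, which binds titin and microtubules, was at 41.2, 36.0 and 37.6 TPM in the Dis samples, 47.1, 44.6 and 40.7 in those of Con, and 41.7, 47.4 and 43.7 in those of NC. Dis overlaps Con in 1 sample and lies just below NC. The log2 fold changes were -0.20 (SE 0.09, limma adjusted p = 0.161) and -0.21 (SE 0.09, limma adjusted p = 0.152), or -0.41 and -0.42 relative to the median gene, and -0.16 and -0.17 without Dis sample 2 (limma adjusted p = 0.284 and 0.287). With median-ratio scaling Trim55 fell relative to NC (-0.45, limma adjusted p = 0.0468) and did not pass relative to Con (-0.43, limma adjusted p = 0.0588).

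Fbxo40, a receptor found mainly in striated muscle that marks the insulin signalling adaptor IRS1 for breakdown, fell. Its level was 127.5, 120.0 and 133 TPM in the Dis samples, 154, 165 and 146 in those of Con, and 152.6, 152.1 and 157 in those of NC. The 3 Dis values lie together below the 6 controls, and Dis sample 2 is the lowest. The change was small, from 155 ± 9.57 TPM to 127 ± 6.58 TPM (-0.29 on the log2 scale, SE 0.08, limma adjusted p = 0.0379), and -0.28 relative to NC (SE 0.08, limma adjusted p = 0.0425). Relative to the median gene it was -0.49 in both comparisons, and it fell after median-ratio scaling (-0.52, limma adjusted p = 0.022 against Con, and -0.52, limma adjusted p = 0.0194 against NC). Both calls were lost with any single sample other than Dis sample 3 left out (-0.24 to -0.33 against Con, limma adjusted p 0.057 to 0.126, and -0.24 to -0.29 against NC, limma adjusted p 0.0546 to 0.125).

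Fbxo21 and Fbxo30 were the least abundant members. Fbxo21 (SMART), a FoxO-dependent F-box gene in denervated mouse muscle, was at 6.94, 9.54 and 8.39 TPM in the Dis samples, 7.02, 5.97 and 4.94 in those of Con, and 5.29, 5.46 and 5.94 in those of NC. Dis overlaps Con, where sample 1 is slightly above Dis sample 1, and does not overlap NC. The log2 fold change was 0.44 relative to Con (SE 0.15, limma adjusted p = 0.0781) and 0.53 relative to NC, where it rose (SE 0.15, limma adjusted p = 0.0469). Relative to Con it passed without Dis sample 1 (0.56, limma adjusted p = 0.0432). The call relative to NC was lost without Dis sample 2 (0.42, limma adjusted p = 0.104), without Dis sample 3, Con sample 2 or any 1 NC sample, and after median-ratio scaling (0.30, limma adjusted p = 0.236). Fbxo30 (MUSA1), known in mouse as a receptor that BMP signals hold down and that denervation induces, was at 6.36, 8.33 and 5.28 TPM in the Dis samples, 5.32, 4.58 and 5.65 in those of Con, and 5.42, 5.65 and 4.73 in those of NC. The groups overlap, and Dis sample 2 alone lies clear of the controls by more than 1 TPM. The log2 fold changes of 0.32 relative to Con (SE 0.17, limma adjusted p = 0.215) and 0.29 relative to NC (limma adjusted p = 0.241) did not pass. They were 0.10 and 0.07 after median-ratio scaling, and 0.15 and 0.13 without Dis sample 2 (limma adjusted p = 0.486 and 0.573).

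**Figure D2:**
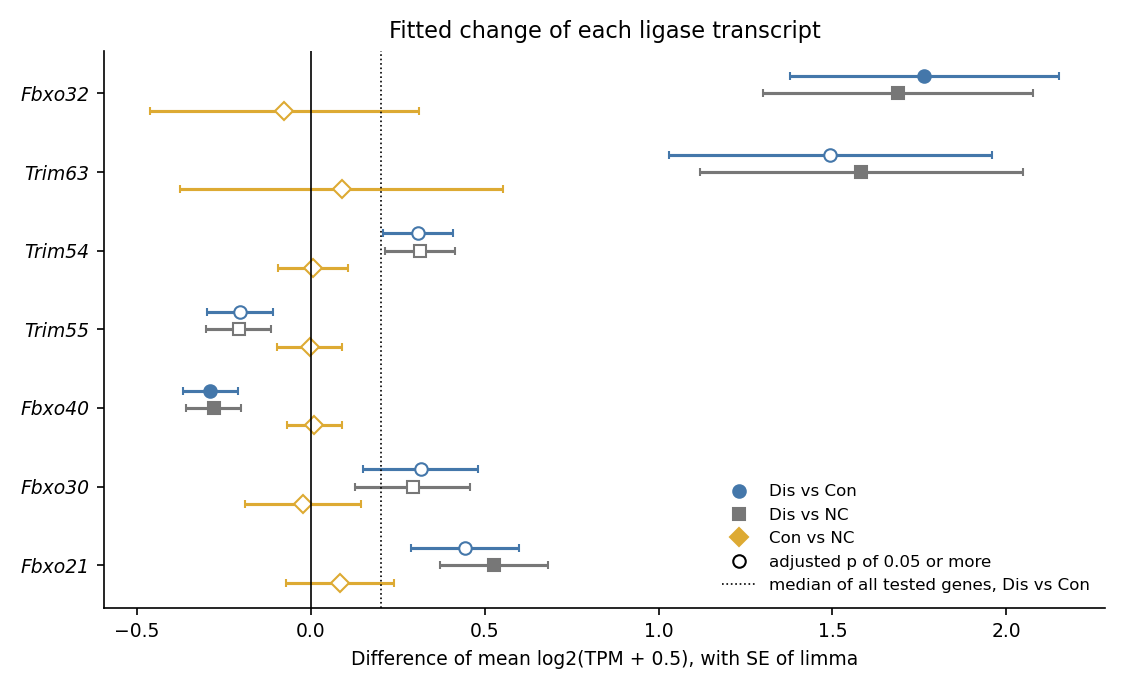
Difference of mean log2(TPM + 0.5) with the SE of limma for each ligase in the 3 comparisons; filled symbols have an adjusted p below 0.05, and the dotted line is the median of all tested genes for Dis with Con, 0.20. Fbxo32 and Trim63 lie far to the right of that line in both comparisons with Dis, Fbxo40 and Trim55 lie left of 0, and the Con with NC values lie near 0.

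The comparison of Con with NC asks whether the free leg differs from muscle of untreated mice. Of the 7 ligases 0 were called in limma and 0 had an unadjusted p below 0.05, where 0.0062% of all genes were called (1 of 16140) and 6.25% had an unadjusted p below 0.05. The log2 fold changes ran from -0.08 (Fbxo32, SE 0.39) to 0.09 (Trim63, SE 0.46), with Fbxo21 at 0.08 (SE 0.15) and the other 4 between -0.02 and 0.01. For Trim54, Trim55 and Fbxo40 the SE was 0.08 to 0.10, while for Fbxo32 and Trim63 it was 0.39 and 0.46, so only a larger difference could have been seen in that pair. In 0 of the 7 did the groups separate, where 17.6% of all genes did (9.54% higher and 8.11% lower in Con).

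A ratio between genes of the same sample does not move with the scaling between samples, so it shows the balance of the ligases directly. These values are descriptions with no test. Fbxo32 to Fbxo40 on the log2 scale was 0.47, 2.02 and 0.51 for Dis, -1.23, -0.54 and -1.42 for Con, and -0.71, -0.92 and -1.30 for NC. Fbxo32 was thus the more abundant of this pair in each Dis sample and the less abundant in each of the 6 controls. Fbxo32 made up 55.6, 77.9 and 56.4% of the summed TPM of the 4 F-box members in Dis and 25.9 to 39.2% in the controls.

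Among the MuRF transcripts Trim63 took a mean share of 52.3% in Dis and 32.6% in Con. This share of the summed TPM of Trim54, Trim55 and Trim63 was 46.5, 70.9 and 39.5% in the Dis samples, 28.6, 42.4 and 26.9% in those of Con, and 31.4, 31.2 and 30.5% in those of NC. Dis and Con overlap in this share, since Con sample 2 is above Dis sample 3. Trim63 to Trim55 was 3.58, 5.50 and 3.43 on the log2 scale in Dis and 2.02 to 3.10 in the controls, with no overlap. Trim63 exceeded Trim54 in 1 of the 9 samples, Dis sample 2, where their log2 ratio was 1.36. In the other Dis samples it was -0.09 and -0.52, and in the controls -1.33 to -0.32. In the immobilized leg the order by mean was Trim63, Trim54, Fbxo32, Fbxo40, Trim55, Fbxo21 and Fbxo30, and Trim63 and Trim54 overlap there, as do Fbxo21 and Fbxo30. The 7 transcripts together summed to 1375, 2913 and 1364 TPM in Dis, 898 to 1191 in Con and 953 to 1000.0 in NC.

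**Figure D3:**
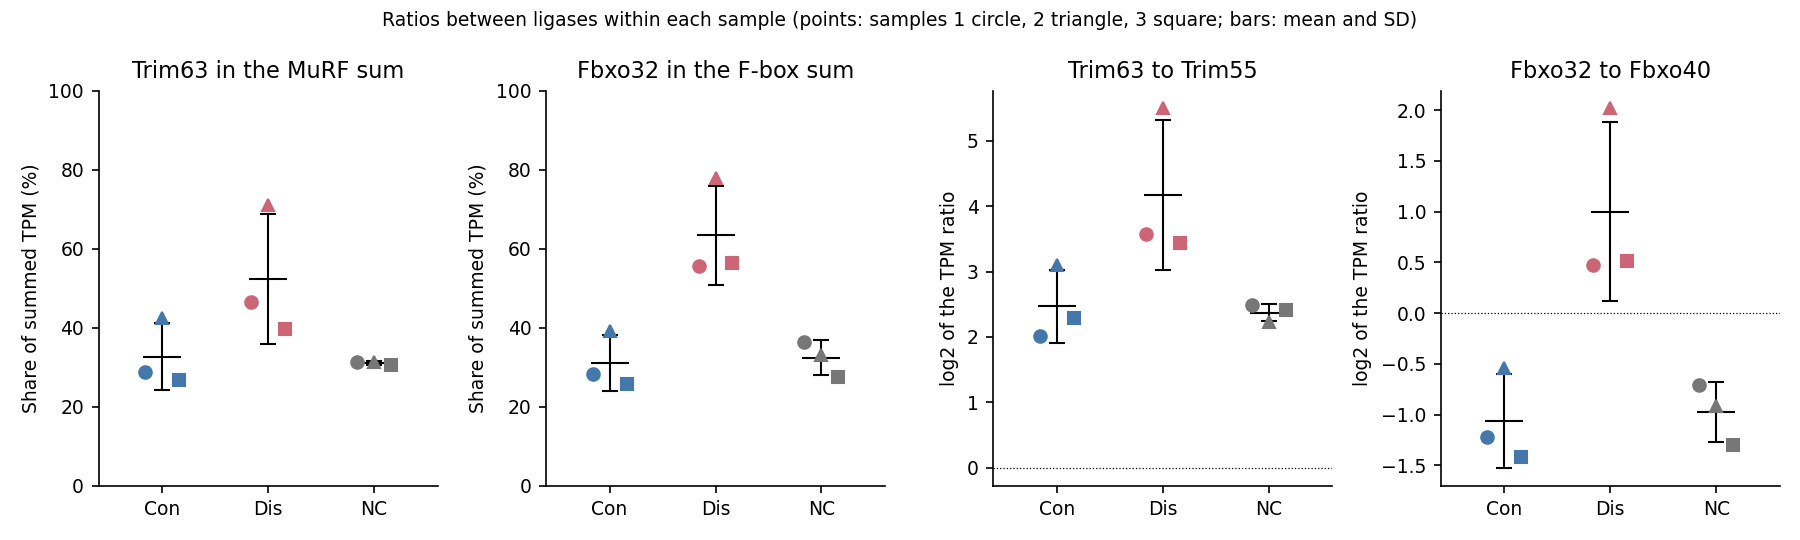
Share of Trim63 in the summed TPM of the 3 MuRF transcripts and of Fbxo32 in that of the 4 F-box transcripts (percent), and log2 TPM ratios of Trim63 to Trim55 and of Fbxo32 to Fbxo40, in each sample with mean and SD per group. The ratio of Fbxo32 to Fbxo40 is above 0 in each Dis sample and below 0 in each control, and the Trim63 share of Con sample 2 (42.4%) lies above that of Dis sample 3 (39.5%).

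The genes whose pattern over the 9 samples was most like that of Fbxo32 and Trim63 were found among 8415 tested genes with a mean of at least 5 TPM, by Pearson's r of log2(TPM + 0.5). These values are descriptions, since the points fall into Dis and controls, Dis sample 2 weighs heavily, and Con and Dis share mice. Most like Fbxo32 were the pseudogene Nsa2-ps1 (r = 0.99), Klhl38 (0.98), a muscle member of the Kelch-like adaptor family of cullin ligases, Sec24b (0.98), a coat protein of vesicles that leave the endoplasmic reticulum, Ints14 (0.98), a subunit of the Integrator complex, and Pnrc1 (0.98). Without Dis sample 2 their r was 0.99, 0.96, 0.97, 0.95 and 0.94. Of these 5 genes Klhl38 had the largest difference between Dis and Con. Its levels were 37.4, 106.2 and 47.3 TPM in the Dis samples, 20.1, 33.1 and 16.1 in those of Con, and 23.6, 24.8 and 14.5 in those of NC (log2 fold change 1.36 relative to Con, SE 0.39, limma adjusted p = 0.0439). Most like Trim63 were Samd8 (0.99), Dipk1a (0.99), H13 (0.98), a protease of signal peptides, the pseudogene Gm6055 (0.98) and Fkbpl (0.98), with r of 0.91 to 0.97 without Dis sample 2. Fbxo32 and Trim63 had an r of 0.97 with each other, 0.93 without Dis sample 2. Trim63 was rank 17 of the genes most like Fbxo32, and Fbxo32 was rank 27 of those most like Trim63. Trim55 and Fbxo40 ran the other way, with r of -0.75 and -0.82 to Fbxo32 (-0.54 and -0.65 without Dis sample 2). Fbxo30 had an r of 0.74 to Fbxo32, which was 0.24 without Dis sample 2.

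The rest of the route to the proteasome was read from lists of known genes. The list counts stand beside 14.1% of all tested genes called higher and 3.08% lower relative to Con. Relative to NC these shares were 13.6% and 2.99%. F-box ligases work in the SCF complex, and of 10 genes of its core and of the neddylation that activates it 4 rose and 0 fell in the immobilized leg relative to Con (list median 0.27, against 0.20 for all genes). Cops5, the catalytic subunit of the signalosome that removes Nedd8 from cullins, had a mean of 80.9 ± 6.09 TPM in Con and rose to 127 ± 10.99 TPM in Dis (0.65 on the log2 scale, SE 0.10, limma adjusted p = 0.00582). Skp1a, the adaptor that holds the F-box, rose from 168 ± 14.8 to 255 ± 30.1 TPM (0.60, SE 0.11, limma adjusted p = 0.00938), a call lost with median-ratio scaling (limma adjusted p = 0.0713). That scaling leaves 1 of the 10, leaving out Con sample 1 leaves 2, and leaving out Dis sample 2 leaves 4. Relative to NC 4 rose and 0 fell, or 2 without NC sample 1 or 3.

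Of 16 other ligases and ubiquitin receptors tied to muscle loss, 7 rose and 0 fell relative to Con, with a list median of 0.47. Sqstm1 (p62), which carries ubiquitin-tagged cargo to autophagy and meets Trim55 at titin, rose from 421 ± 23.4 to 797 ± 237 TPM (0.88, SE 0.17, limma adjusted p = 0.013). Ubr4, a large ligase of the N-degron route, rose from 24.6 ± 1.20 to 45.1 ± 4.57 TPM (0.86, SE 0.10, limma adjusted p = 0.00316). Both rose after median-ratio scaling, where 3 of the 16 were called, and without Con sample 1 or 3 the number was 3 or 4. Relative to NC 7 rose and 0 fell, or 4 without NC sample 1 or 3. Without Dis sample 2 the counts relative to Con were 8 up and 2 down.

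The E2 enzymes that hand ubiquitin to the ligases gave 3 up and 0 down of 15 relative to Con, and 1 up relative to NC. The highest were Ube2d1 (0.44 on the log2 scale, SE 0.12, limma adjusted p = 0.0381) and Ube2j1 (0.42, SE 0.12, limma adjusted p = 0.0414), and 0 of the 15 were called after median-ratio scaling, without any 1 Con sample, without Dis sample 2 or without NC sample 1, and 1 without Dis sample 1, NC sample 2 or NC sample 3. The call relative to NC was lost without NC sample 1 or 2. The list median of 0.17 lies below that of all genes. At the end of the route, of 36 ubiquitin and proteasome genes 31 rose and 0 fell relative to Con, with a median of 0.59, and 32 rose relative to NC. Psmd2 and Psmd4, subunits of the regulatory particle that receives tagged proteins, rose by log2 fold changes of 1.16 (SE 0.12, limma adjusted p = 0.00275) and 1.06 (SE 0.17, limma adjusted p = 0.00643). Median-ratio scaling leaves 18 of the 36, leaving out Con sample 1 leaves 19 and leaving out Dis sample 2 leaves 27.

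Of 23 upstream regulators, 4 rose and 0 fell relative to Con (median 0.37), and 3 rose and 1, Foxo6, fell relative to NC. Of all tested genes 14.1% were called higher relative to Con and 13.6% relative to NC. Relative to Con the counts were 7 up and 1 down without Dis sample 1, 6 up without Dis sample 3 and 5 up without Dis sample 2. Relative to NC 6 rose without Dis sample 1 or 3, 5 without Dis sample 2 and 2 without Con sample 3 or any 1 NC sample. Hdac4, a deacetylase that acts in the response to lost nerve input, had a mean of 10.8 ± 1.56 TPM in Con and rose to 26.2 ± 3.61 TPM (1.25 on the log2 scale, SE 0.14, limma adjusted p = 0.00275). Akt1, the kinase that keeps FoxO factors out of the nucleus, rose from 48.4 ± 4.53 to 83.8 ± 18.7 TPM (0.77, SE 0.15, limma adjusted p = 0.0117). After median-ratio scaling these were the 2 called. The FoxO genes are named for their known role, after their values were seen. Foxo1 read 4.25 ± 0.989 TPM in Con and 4.81 ± 1.29 in Dis (0.15, limma adjusted p = 0.62), and Foxo3 7.55 ± 0.223 and 8.70 ± 1.73 TPM (0.18, limma adjusted p = 0.389). Foxo4 rose from 85.5 ± 4.06 to 115 ± 9.21 TPM (0.42, limma adjusted p = 0.0133), while relative to NC, at 98.7 ± 0.878 TPM, it did not pass (0.21, limma adjusted p = 0.108). Foxo6 was at 5.11 ± 1.51 TPM in Dis, 7.99 ± 0.757 in Con and 10.4 ± 2.46 in NC. It did not pass relative to Con (-0.63, limma adjusted p = 0.081) and fell relative to NC (-0.96, limma adjusted p = 0.0209). The call was lost without NC sample 2 or 3, and without Dis sample 1 Foxo6 passed relative to Con too. FoxO activity is set largely by where the protein lies in the cell, which transcript levels do not show.

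Described substrates of these ligases were read as transcripts, and RNA says nothing of their breakdown. Of 18 tested, 2 rose and 4 fell relative to Con, and the counts relative to NC were also 2 and 4. Myl2 and Myh2, a light chain of slow fibres and the heavy chain of 2A fibres, fell by 2.16 and 1.92 on the log2 scale (SE 0.40 and 0.28, limma adjusted p = 0.0106 and 0.00547). Eif3f and Myod1, described targets of Fbxo32, rose by 0.48 and 0.48 (SE 0.10 and 0.105, limma adjusted p = 0.0167 and 0.0181), calls lost with median-ratio scaling (limma adjusted p = 0.117 and 0.25), and relative to NC Myod1 did not pass (0.17, limma adjusted p = 0.279). Myod1 is also counted among the upstream regulators and Myh2 among the muscle fibre markers, so these list counts share genes. Median-ratio scaling leaves 0 up and 4 down, and leaving out Dis sample 2 leaves 3 up and 4 down. Without 1 Con sample 1 rose and 2 or 3 fell, and 2 fell without Dis sample 3 or NC sample 1. Relative to NC, leaving out NC sample 1, 2 or 3 gave 0, 0 or 1 up and 0, 2 or 2 down, leaving out Dis sample 1 gave 3 up and 2 down, and leaving out Con sample 2 or 3 gave 1 up. Irs1, the described target of Fbxo40, read 14.5, 6.32 and 13.9 TPM in the Dis samples, 19.8, 15.2 and 16.6 in those of Con, and 11.4, 11.6 and 11.9 in those of NC, and was named after its values were seen. It did not pass relative to Con (-0.63, limma adjusted p = 0.127) or NC (-0.10, limma adjusted p = 0.825), nor between Con and NC (0.53, limma adjusted p = 0.841).

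**Figure D4:**
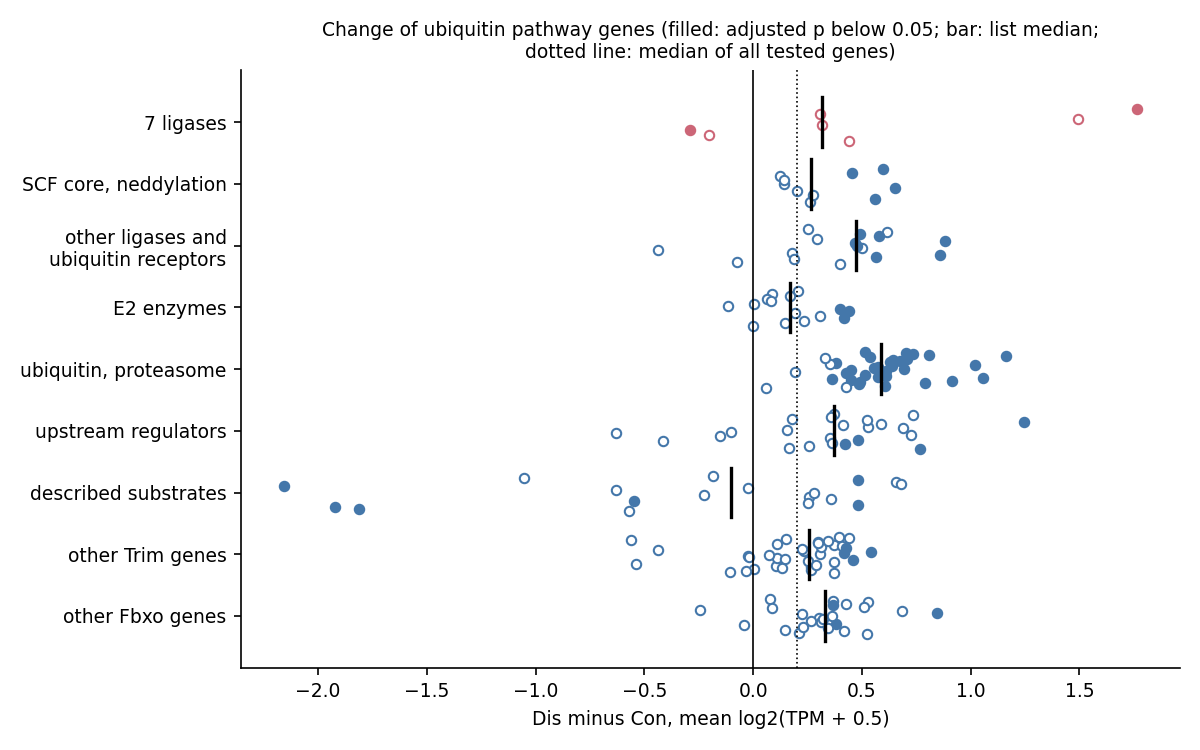
Difference of mean log2(TPM + 0.5) between Dis and Con for each tested gene of the ubiquitin route; filled points have an adjusted p below 0.05, bars are list medians and the dotted line is the median of all tested genes. The ubiquitin and proteasome list lies to the right of the line, with 31 of 36 called, while the 7 ligases are spread from -0.29 to 1.76 with 2 called.

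Set against their own families, Fbxo32 and Trim63 had larger log2 fold changes than every other tested Trim or Fbxo gene, as a description. Among all tested genes 14.1% were called higher relative to Con. Of 36 other Trim genes tested 4 rose and 0 fell relative to Con, with a median of 0.26, and of 24 other Fbxo genes 3 rose and 0 fell, with a median of 0.33. After median-ratio scaling these were 0 up and 1 down and 1 up and 0 down. Without Con sample 1 they were 1 and 0 up, without Con sample 2 or 3 1 and 1 up, without NC sample 1 2 and 1 up, and without Dis sample 2 3 up and 2 down and 3 up. Relative to NC 3 and 3 rose, with 0 to 6 and 1 to 5 up when 1 sample was left out. The largest rises were Trim23 (0.54, SE 0.09, limma adjusted p = 0.00851) and Trim27 (0.46, SE 0.12, limma adjusted p = 0.0335), and Fbxo17 (0.84, SE 0.18, limma adjusted p = 0.0165) and Fbxo11 (0.38, SE 0.10, limma adjusted p = 0.0332). With median-ratio scaling Fbxo17 passed (limma adjusted p = 0.0355), and Trim23, Trim27 and Fbxo11 did not.

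**Figure D5:**
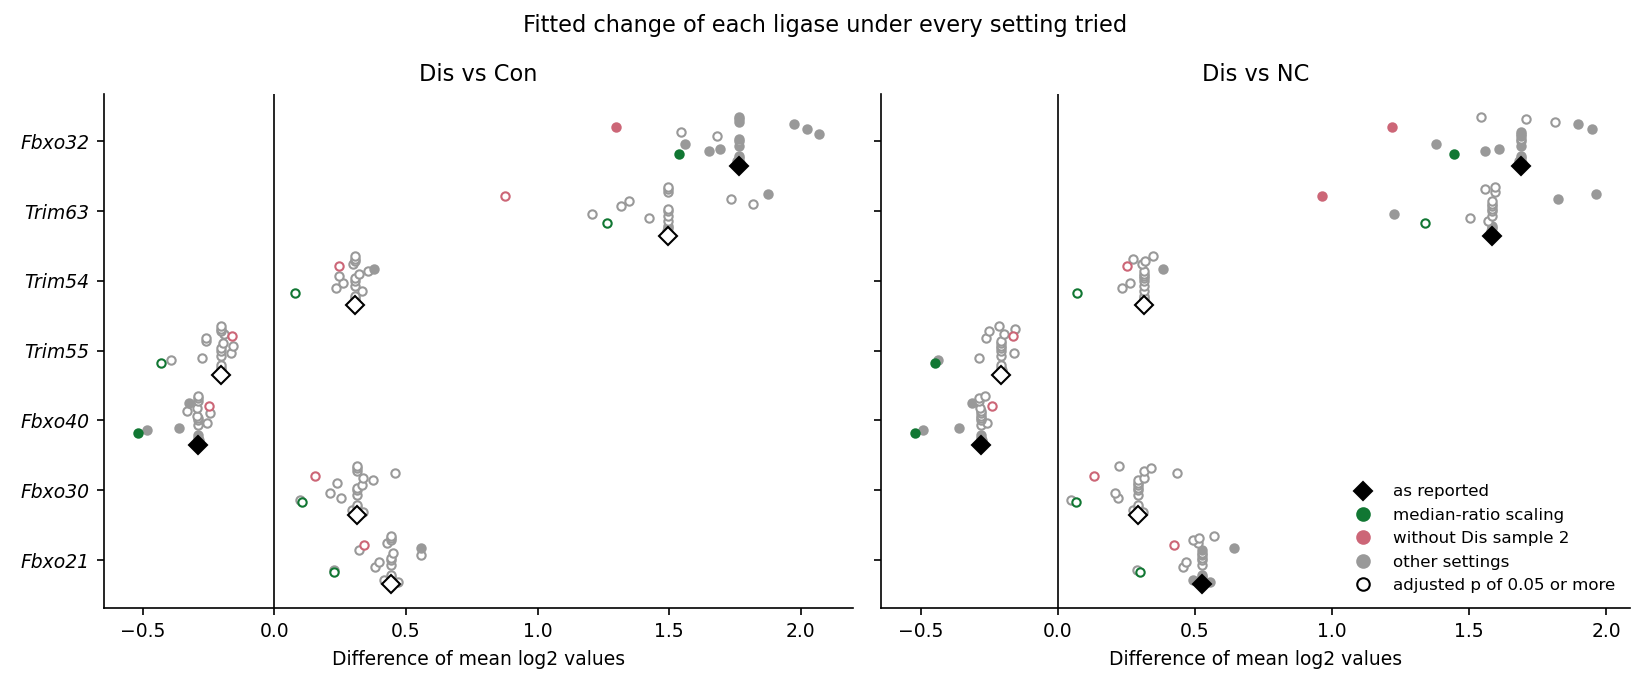
Log2 fold change of each ligase relative to Con (left) and NC (right) under each setting tried; diamonds are the reported values, green points median-ratio scaling, red points the fit without Dis sample 2, grey points the other settings, and filled symbols have an adjusted p below 0.05. The direction of each ligase relative to Con and NC was the same in every setting, and Trim63 without Dis sample 2 moved to 0.87 and 0.96.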

How the data were processed

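RNA of 9 gastrocnemius samples was sequenced by the authors. Per the labels and methods, reads were demultiplexed with bcl2fastq 2.20, trimmed, aligned with HISAT2 and quantified with StringTie. The genome build is not given in the sources used here. The deposited values are TPM per gene, scaled by the authors to the same total in each sample, and the lowest value, 0.0001 TPM (306476 values), was set to 0. A gene was tested if 3 or more samples reached 0.3 TPM.

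The 3 groups were fitted together to log2(TPM + 0.5) in limma 3.58.1 (R 4.3.3), letting the prior variance follow the mean, and p-values were adjusted over all tested genes by Benjamini-Hochberg. Fold changes of low genes are understated by the added 0.5. Count tests were not run, since TPM holds no read totals. The fit was also run on simulated normal values with known changes. These were drawn independently for each sample, so mice shared between groups and an outlying sample were not covered. Tables were made in Python 3.11.15 with pandas 2.3.3 and figures with matplotlib 3.10.9.

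The members and gene lists were chosen with earlier results of these data known. Genes named by rule beyond the 7 are, per list, up to 2 rises and 2 falls called in Dis with Con with a mean of at least 1 TPM, and the 5 genes most like Fbxo32 and Trim63. Others were named outside this rule, among them the FoxO genes, Irs1, Kdr and genes that overlap or lie next to a member. Skp1 is spelled Skp1a in the tables. Alternatives were pseudocounts of 0.1 and 1, no filter or 1 TPM, median-ratio and quantile scaling, rescaling without mitochondrial genes, no trend, array weights, fits to 2 groups, a replicate block, and leaving out each sample.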

Additional observations from a re-analysis of the deposited data

How the results depend on the processing

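The direction of each of the 7 ligases relative to Con and to NC was the same under all 20 alternatives. Calls were less stable. Fbxo32 was called in 16 of the 20 relative to Con and 15 relative to NC, Trim63 in 2 and 7, Fbxo40 in 8 and 8, and Fbxo21 in 1 and 6. Fbxo32 was lost relative to Con with no filter (limma adjusted p = 0.0518) and in the fit of 2 groups (limma adjusted p = 0.0578). The number of ligases called relative to Con (2) was 3 with a filter of 1 TPM, where Trim63 was called too. It was 1 with no filter, no mean trend or array weights, 0 in the fit of 2 groups, and 0 to 3 with single samples left out. Relative to NC (4) it was 1 with no filter or no mean trend, 2 without mitochondrial genes or with array weights, 1 in the fit of 2 groups, and 0 to 4 with single samples left out.

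The labels do not say whether equal replicate numbers of Con and Dis mark the same mouse. The correlations given next cannot decide it, with 3 samples per group. Deviations of same-numbered samples from their group means correlated at -0.02 to 0.02 between Dis and Con, -0.10 to 0.07 between Dis and NC and -0.09 to -0.0036 between Con and NC. With the replicate block, 1 ligase (Fbxo32) was called relative to Con and 0 relative to NC, and over all genes the calls were 164 for Dis with Con, 0 for Dis with NC and 0 for Con with NC. In that limma fit 4320, 4222 and 1799 genes had an unadjusted p below 0.05, among them 4, 4 and 0 of the 7 ligases. NC comes from other, untreated mice, so in the comparisons with NC the block joined unrelated animals. Its counts there say nothing of pairing.

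Over all genes, the 2770 calls of Dis with Con (82.1% of them higher) became 1184 (36.4% higher) with median-ratio scaling, 1192 (46.1% higher) with quantile scaling, 848 in the fit of 2 groups and 700 to 2897 with single samples left out. The 2676 calls of Dis with NC (82.0% higher) became 1457 (38.8% higher), 1407 (44.8% higher), 1230 and 836 to 3095. The 1 call of Con with NC became 2 with no filter, 43 with array weights, 7 in the fit of 2 groups and 1 to 8 with single samples left out. The causes of these shifts were not tested.

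Between Con and NC the signs turned for values near 0. Trim55 was 0.006 with array weights. Trim54 was -0.0082, -0.0198 and -0.0027, and Fbxo40 -0.0045, -0.0068 and -0.0016, the first 2 of each with median-ratio and quantile scaling and the third without mitochondrial genes for Trim54 and with array weights for Fbxo40. With single samples left out the ranges were -0.38 to 0.14 for Fbxo32, -0.24 to 0.27 for Trim63, -0.0513 to 0.0526 for Trim55, -0.0437 to 0.069 for Trim54, -0.0908 to 0.056 for Fbxo30, -0.0364 to 0.0517 for Fbxo40 and -0.0307 to 0.20 for Fbxo21. With 3 samples per group and no read totals, small differences of Fbxo32 and Trim63 could not be resolved.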

Other observations

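The neighbours of Fbxo32 on chromosome 15 were looked at after Klhl38 was found to be like it. Klhl38 (chr15:58314573-58324169, minus strand) lies on the same strand upstream of Fbxo32, and the antisense gene Gm15943 (chr15:58214475-58324053, plus strand) spans the interval between them. Gm15943 was at 0.279, 0.775 and 0.155 TPM in the Dis samples, 0.0279, 0.068 and 0.104 in those of Con, and 0.0878, 0.0652 and 0.0808 in those of NC. Each Dis value is above each control, but it did not pass the filter and was not tested. Gm15943 also runs across most of Klhl38 by these coordinates, and its exons overlap those of Fbxo32 over 186 bases. Whether its reads stem from the other strand was not tested. Klhl38 rose relative to NC as well (log2 fold change 1.47, SE 0.39, limma adjusted p = 0.0342). Wdyhv1, a gene on the other side (chr15:58141377-58158665), read 2.48, 3.39 and 2.54 TPM in the Dis samples and 4.21, 3.73 and 2.76 in those of Con, and did not pass (-0.30, SE 0.19, limma adjusted p = 0.299).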
